A study of Homo sapiens with 6 samples.

Results

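The genes described here are 8 keratins (KRT5, KRT7, KRT8, KRT17, KRT18, KRT19, KRT80 and KRT81) together with VIM, which encodes vimentin, and NES, which encodes nestin. They were taken by symbol, with earlier results of these data known, and are 10 of the 25737 entries in each count table. Their transcripts were counted in 2 human respiratory epithelial cell lines exposed to transforming growth factor-beta 1 (TGF-β1), a cytokine used to drive epithelial cells toward a mesenchymal, fibrosis-like state.

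A549 is a line of lung carcinoma epithelial cells and BEAS-2B is a line of bronchial epithelial cells. Both carry the wild-type label and were grown in RPMI1640 medium. Each line was left untreated (control group, 0 ng/mL) or received TGF-β1 at 1 or 5 ng/mL over 48 h, which gives 6 conditions. A single library represents each condition, so nothing shows how far repeated cultures would spread, and no test within a cell line was possible. Treated cells were kept in medium with 1% FBS during the exposure, while the labels do not state which medium the untreated cells received over that time. Reads were generated with a QuantSeq 3′ kit, which yields about one fragment near the 3′ end of each transcript.

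Intermediate filaments are the rope-like part of the cytoskeleton. Keratins build them in epithelial cells, and every keratin filament is an obligate copolymer of a type I keratin (here KRT17, KRT18 and KRT19) with a type II keratin (here KRT5, KRT7, KRT8, KRT80 and KRT81). Vimentin, a type III protein, assembles with itself and is typical of mesenchymal cells, whereas nestin, a type IV protein, joins vimentin filaments and is best known from stem and progenitor cells. A shift from keratins toward vimentin is a textbook feature of epithelial–mesenchymal transition (EMT).

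The 10 genes can be compared directly in their coding sequence. The stretch below encodes the end of the central rod, a motif that all intermediate filament proteins carry, and it is shown because it is a place where keratins, vimentin and nestin can be laid side by side base by base. Each line holds 30 bases of the coding strand, 5′ to 3′, from the GENCODE 29 transcripts on GRCh38. Capitals mark the 13 positions at which all 10 genes carry the same base.
KRT8: ACcTACaGgaagCTgcTgGAgGgcgaggAg
KRT18: ACcTACcGccgcCTgcTgGAaGatggcgAg
KRT7: ACcTACcGcaagCTgcTgGAgGgcgaggAg
KRT19: ACcTACcGcagcCTgcTcGAgGgacaggAa
KRT5: ACtTACcGcaagCTgcTgGAgGgcgaggAa
KRT17: ACcTACcGccgcCTgcTgGAgGgagaggAt
KRT80: ACcTACaGgaagCTggTgGAgGgcgaggAg
KRT81: ACcTACaGgcgcCTgcTgGAgGgcgaggAg
VIM: ACcTACaGgaagCTgcTgGAaGgcgaggAg
NES: ACgTACaGgaccCTccTgGAgGctgagaAc

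Within this window KRT8 shared 29 of 30 bases with its type II relative KRT80, and as many with VIM, of type III. It shared 28 with KRT7, 27 with KRT81 and 26 with KRT5, all of type II. It shared fewer with the type I genes, namely 23 with KRT17, 22 with KRT19 and 20 with KRT18, its own filament partner, and 22 with NES. Shared bases did not follow type throughout, as KRT18 shared 23 with KRT81, of type II, and 21 with KRT19, of type I. The encoded proteins ran from 400 residues for KRT19 to 590 for KRT5 among the keratins, against 466 for VIM and 1621 for NES. The 5 type II keratin genes, KRT8, KRT7, KRT5, KRT80 and KRT81, lie on chromosome 12 of GRCh38 together with the type I gene KRT18, whereas KRT17 and KRT19 lie on chromosome 17, VIM on chromosome 10 and NES on chromosome 1.

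Total counts ranged from 4120624 to 7841350 per library. Counts were scaled by TMM factors to normalized counts, which were put on a log2 scale after adding 1 to give the normalized data (ND) value. A gene was called higher or lower when the fold change (FC) was 2 or more and either library of the comparison had an ND value of 7 or more, which equals a normalized count of 127; such genes are said below to be at the minimum. How the authors computed their own ND value is not given in the sources used here, so this minimum may differ from theirs. If log2(CPM + 1) stands for ND instead, the same filament genes were called against control, while over all genes 420 higher and 308 lower were called in A549 at 5 ng/mL in place of 1146 and 1220, and 158 and 199 in BEAS-2B in place of 494 and 783. Unless stated otherwise, ranges in parentheses after a ratio are exact 95% Clopper-Pearson intervals; these cover counting error only and not the spread of PCR copies or cultures. CDH2, which encodes N-cadherin, was called higher in all 4 comparisons with the control group (normalized counts of 650, 1592 and 2445 in A549 and 1167, 2708 and 2887 in BEAS-2B, at 0, 1 and 5 ng/mL). The epithelial label held in part: CDH1 (E-cadherin) was read 640 times in untreated A549 but 2 times in untreated BEAS-2B. It was the only one of 6 epithelial markers to reach the minimum, EPCAM had 0 counts in all BEAS-2B libraries, and the list summed to 855, 113 and 144 normalized counts in A549 and to 70.3, 25.9 and 37.8 in BEAS-2B, at 0, 1 and 5 ng/mL. CDH1 fell with treatment in A549 (log2 FC of -5.10 and -6.49). Of the 5 basal airway markers, none reached the minimum in any library, and of the 7 alveolar type II markers only ABCA3 did, which was called higher in A549 at both doses (83.4, 175 and 176 normalized counts). Of 5 fibroblast markers, THY1 and COL1A2 reached it, and the list summed to 1321, 1471 and 1923 normalized counts in BEAS-2B and to 22.0, 315 and 75.3 in A549. COL1A2 was called higher in A549 at 1 ng/mL (log2 FC of 5.12) and in BEAS-2B at 5 ng/mL (2.59). None of the 3 endothelial, 3 ciliated and 4 immune markers reached the minimum. What part these marker levels had in the results below was not tested.

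Of the 10 filament genes, KRT8, KRT18, KRT7, KRT80, KRT81 and VIM reached the minimum in A549, and KRT17 did so in BEAS-2B in addition. KRT19, NES and KRT5 reached it in no library. In A549 at 1 ng/mL, 2 genes were called higher (KRT7 and KRT81) and 1 was called lower (KRT8), where 10.9% of the 7007 genes at the minimum were called higher and 12.6% lower. The same 3 genes were called at 5 ng/mL, against 16.1% and 17.1% of 7115 genes. In BEAS-2B at 1 ng/mL, 3 genes were called higher (KRT7, KRT17 and KRT81) and 0 lower, against 5.66% and 9.13% of 6681 genes, and at 5 ng/mL the same 3 were called, against 7.33% and 11.6% of 6735 genes. The median log2 FC of the filament genes at the minimum was 0.45 and 0.57 in A549 and 0.29 and 0.54 in BEAS-2B, at 1 and 5 ng/mL, beside 0.09, 0.11, 0.01 and 0.03 for all genes at the minimum. Both doses were set against the same control library of each line, so their values are given side by side and are not independent of each other.

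**Figure D1:**
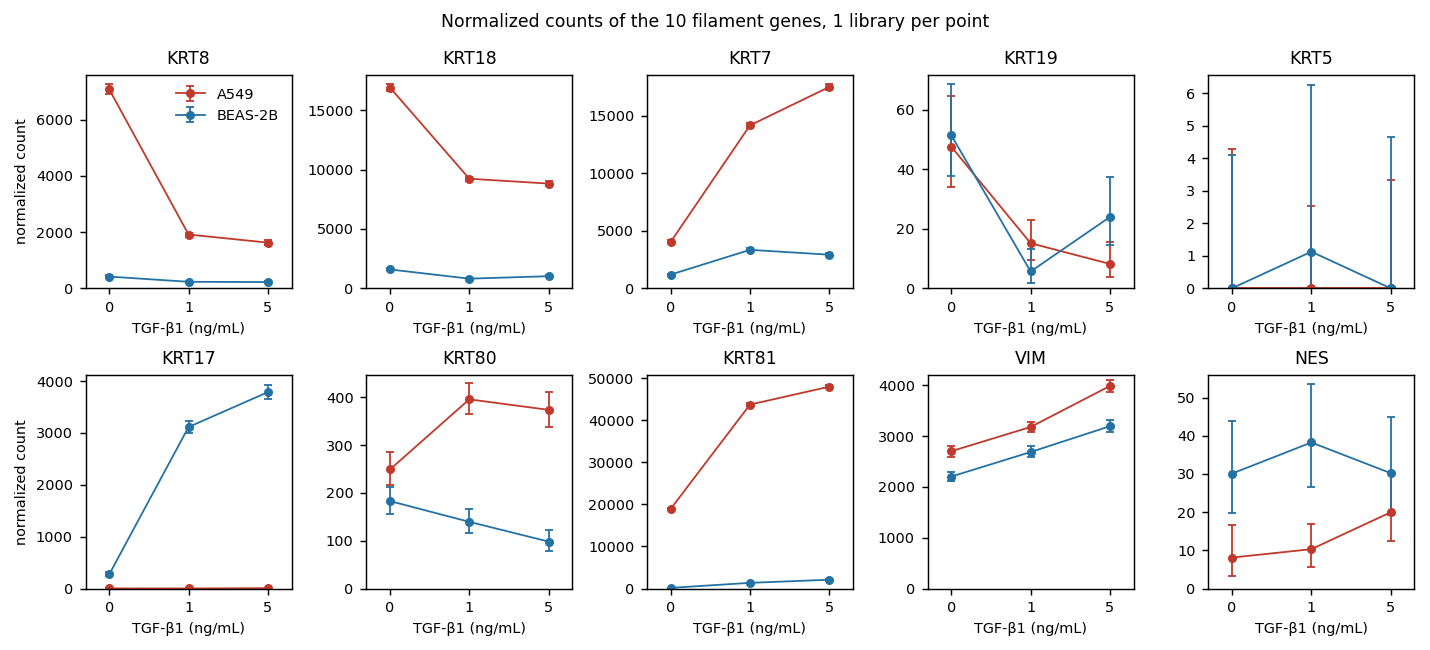
Normalized count (y axis, linear and separate for each panel) of each filament gene against the TGF-β1 concentration (x axis, ng/mL) in A549 (red) and BEAS-2B (blue). Each point is 1 library and bars are 95% counting intervals; KRT8 and KRT18 go down with treatment, KRT7 and KRT81 go up in both lines, KRT17 reaches 3786 in BEAS-2B and at most 7.26 in A549, and VIM stays within an FC of 2.

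KRT8 and KRT18 are the primary pair of simple epithelia, the first keratins to appear in the embryo. KRT8 (ENSG00000170421, chromosome 12, 52897187 to 52949954, minus strand) gave normalized counts of 7081, 1913 and 1626 in A549 at 0, 1 and 5 ng/mL. In BEAS-2B it gave 415, 230 and 220. In each line the control library was the highest and the 2 treated libraries lay close together. In A549, KRT8 fell 3.70-fold at 1 ng/mL (3.54 to 3.87) and 4.36-fold at 5 ng/mL (4.13 to 4.59), and 397 of the 7115 genes had a lower log2 FC at 5 ng/mL. In BEAS-2B it was 1.81-fold lower (1.52 to 2.15) and 1.88-fold lower (1.57 to 2.27), which did not reach the FC limit. A lower count in such bulk libraries cannot tell fewer cells of a type from less RNA per cell.

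KRT18 (ENSG00000111057, chromosome 12, 52948871 to 52952901, plus strand), the type I partner of KRT8, gave normalized counts of 16906, 9228 and 8818 in A549. In BEAS-2B its values were 1582, 807 and 1015. As with KRT8, the control library was the highest of each line, but no FC reached 2. The level was 1.83-fold lower (1.79 to 1.88) and 1.92-fold lower (1.87 to 1.97) in A549, and 1.96-fold lower (1.79 to 2.15) and 1.56-fold lower (1.43 to 1.70) in BEAS-2B. Scaled by total counts instead, KRT18 passed the limit in A549 at both doses (log2 FC of -1.04 and -1.14) and in BEAS-2B at 1 ng/mL (-1.10), and KRT8 passed it in BEAS-2B at 5 ng/mL (-1.04).

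The pair did not move in step in A549. KRT8 counts per KRT18 count were 0.419, 0.207 and 0.184 at 0, 1 and 5 ng/mL, a ratio formed within each library that needs no scaling between libraries. In BEAS-2B the ratio was 0.262 (0.233 to 0.294), 0.285 (0.242 to 0.333) and 0.217 (0.183 to 0.256). Thus the type II partner dropped relative to the type I partner in A549 at either dose. In BEAS-2B the intervals of the treated libraries overlapped that of the control library.

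KRT7, a type II simple keratin of ducts and lung epithelium, moved the other way. KRT7 (ENSG00000135480, chromosome 12, 52232520 to 52252186, plus strand) gave normalized counts of 4024, 14155 and 17495 in A549. In BEAS-2B it gave 1186, 3337 and 2916. Every treated library lay above the control library of its line, and the highest BEAS-2B library lay below the lowest A549 library. KRT7 rose 3.52-fold (3.39 to 3.65) and 4.35-fold (4.19 to 4.51) in A549, and 2.81-fold (2.62 to 3.02) and 2.46-fold (2.29 to 2.65) in BEAS-2B. In A549, 218 of 7115 genes had a higher log2 FC at 5 ng/mL. KRT7 counts per KRT8 count went from 0.568 to 7.40 and 10.8 in A549 and from 2.86 to 14.5 and 13.2 in BEAS-2B, so that KRT7 was counted less than KRT8 in untreated A549 but more than KRT8 in the other 5 libraries.

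KRT19, the smallest keratin and the only one without a tail domain, was little expressed at the RNA level. KRT19 (ENSG00000171345, chromosome 17, 41523617 to 41528308, minus strand) was read 41, 22 and 9 times in A549. In BEAS-2B it was read 46, 5 and 19 times. The control library was the highest in each line. On the normalized scale KRT19 was 3.14-fold lower (1.83 to 5.54) and 5.82-fold lower (2.79 to 13.6) in A549, and 9.12-fold lower (3.64 to 29.4) and 2.14-fold lower (1.23 to 3.87) in BEAS-2B. These ratios exceed counting error, but KRT19 stayed under the minimum in all 6 libraries and was not called.

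KRT5 and KRT17 are keratins of basal and injured epithelia. KRT5 (ENSG00000186081, chromosome 12, 52514575 to 52520687, minus strand), the defining keratin of airway basal cells, was read 1 time in BEAS-2B at 1 ng/mL and 0 times in the other 5 libraries, and a count of 0, taken as allowing up to 3 counts, leaves a normalized count of up to 2.06 to 3.78 depending on the library. KRT14, its usual basal partner, was read 0 times in all 6 libraries.

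KRT17, a stress and wound keratin, separated the lines. KRT17 (ENSG00000128422, chromosome 17, 41619441 to 41624842, minus strand) was read 247, 2768 and 3006 times in BEAS-2B, against 2, 2 and 8 times in A549. The corresponding normalized counts in BEAS-2B were 276, 3115 and 3786. KRT17 rose 11.3-fold (9.92 to 12.9) at 1 ng/mL and 13.7-fold (12.1 to 15.7) at 5 ng/mL in BEAS-2B, and of 6735 genes only 20 had a higher log2 FC at 5 ng/mL. In A549 the ratios to the control library were 0.593 (0.0430 to 8.18) and 3.13 (0.625 to 30.3), so with so few counts a change was not detectable at this depth. Other basal markers did not accompany KRT17 in BEAS-2B, where the 5 basal airway markers together gave 2.23, 1.13 and 0 normalized counts.

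KRT80 and KRT81 complete the type II keratins. KRT80 (ENSG00000167767, chromosome 12, 52168996 to 52192000, minus strand), a keratin of many epithelia, gave normalized counts of 249, 396 and 374 in A549. In BEAS-2B it gave 183, 140 and 98.2. The treated libraries lay above the control in A549 and below it in BEAS-2B, and no FC reached 2. The ratios to the control library were 1.59 (1.36 to 1.87) and 1.501 (1.27 to 1.78) in A549 but 0.763 (0.599 to 0.969) and 0.537 (0.405 to 0.707) in BEAS-2B. KRT80 is the one filament gene at the minimum in both lines whose direction differed between them.

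KRT81 is classed as a hair keratin, which is normally a component of the hair shaft. KRT81 (ENSG00000205426, chromosome 12, 52285913 to 52291534, minus strand) was the most counted filament gene in A549, with 16328, 63609 and 52855 counts or normalized counts of 18918, 43702 and 47954. It took 0.394%, 0.811% and 0.866% of all counts in these libraries and ranked 8, 2 and 3 among all entries by count. In BEAS-2B it gave normalized counts of 155, 1353 and 2092 and ranked 5480, 655 and 387. KRT81 rose 2.31-fold (2.27 to 2.35) and 2.53-fold (2.49 to 2.58) in A549, and 8.72-fold (7.31 to 10.5) and 13.5-fold (11.3 to 16.2) in BEAS-2B, where 22 of 6735 genes had a higher log2 FC at 5 ng/mL. Its span lies within that of KRT86 on the opposite strand, and whether the counting used strand is not given in the sources used here. KRT86, a further hair keratin, was read 21, 63 and 48 times in A549 and 4, 5 and 4 times in BEAS-2B. Of the 50-base words in the last 400 bases of the KRT81 transcript, 0% occurred in the transcript of another gene. The words were compared in the sense direction only, so this share does not bear on the overlap between strands.

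VIM is the mesenchymal filament gene of the set. VIM (ENSG00000026025, chromosome 10, 17228259 to 17237593, plus strand) gave normalized counts of 2702, 3178 and 3985 in A549. In BEAS-2B it gave 2203, 2686 and 3193. In each line the order was control, 1 ng/mL and 5 ng/mL, and untreated A549 already held more VIM than untreated BEAS-2B, by 1.23-fold (1.15 to 1.30). The ratios to the control library were 1.18 (1.12 to 1.24) and 1.47 (1.40 to 1.55) in A549, and 1.22 (1.15 to 1.29) and 1.45 (1.37 to 1.54) in BEAS-2B. Each exceeded counting error and each was under the FC limit. At 5 ng/mL, 2189 of 7115 genes in A549 and 1476 of 6735 genes in BEAS-2B had a higher log2 FC than VIM. Scaled by total counts, the log2 FC of VIM was 0.07 and 0.36 in A549 and 0.16 and 0.41 in BEAS-2B, in place of 0.23, 0.56, 0.29 and 0.54.

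NES (ENSG00000132688, chromosome 1, 156668763 to 156677397, minus strand) was read 7, 15 and 22 times in A549. In BEAS-2B it was read 27, 34 and 24 times. It stayed under the minimum throughout. The ratios to the control library were 1.27 (0.488 to 3.68) and 2.46 (1.02 to 6.82) in A549 and 1.27 (0.744 to 2.19) and 1.00 (0.554 to 1.81) in BEAS-2B. Only the interval for A549 at 5 ng/mL, which rests on 7 counts in the control library, left out a ratio of 1.

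**Figure D2:**
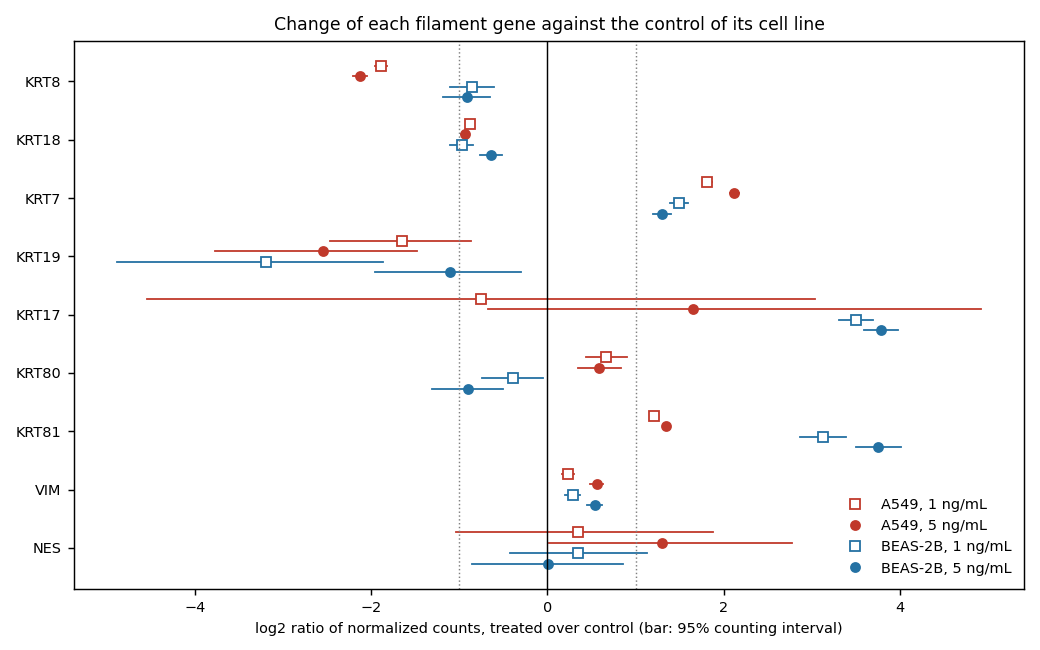
Log2 ratio of normalized counts, treated over control (x axis), for 9 filament genes (y axis; KRT5, with 1 count in all, is left out) in A549 (red) and BEAS-2B (blue) at 1 ng/mL (open squares) and 5 ng/mL (filled circles). Bars are 95% counting intervals and dotted lines mark an FC of 2; KRT81 and KRT17 in BEAS-2B lie farthest to the right, KRT8 lies farther left in A549 than in BEAS-2B, and VIM lies within the dotted lines in all 4 comparisons.

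Whether the response differed between the lines was examined as the ratio of the FCs, with an interval from the normal approximation on the log scale, which again covers counting error only and is rough for genes with few counts. The fall of KRT8 was deeper in A549, with the BEAS-2B ratio 2.05 times the A549 ratio at 1 ng/mL (1.72 to 2.44) and 2.31 times at 5 ng/mL (1.92 to 2.79). The rise of KRT81 was larger in BEAS-2B, by 3.78 times (3.17 to 4.505) and 5.32 times (4.47 to 6.33). The rise of KRT7 was larger in A549, by 1.25 times (1.16 to 1.35) and 1.77 times (1.63 to 1.92). KRT80 showed the opposite directions described above, with the A549 ratio 2.08 times (1.57 to 2.76) and 2.79 times (2.04 to 3.83) that of BEAS-2B.

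VIM changed by nearly the same factor in both lines, and the A549 ratio was 0.965 times that of BEAS-2B at 1 ng/mL (0.893 to 1.04) and 1.02 times at 5 ng/mL (0.942 to 1.10). For KRT18 the BEAS-2B ratio was 0.935 times that of A549 at 1 ng/mL (0.852 to 1.03) and 1.23 times at 5 ng/mL (1.12 to 1.35). For KRT17 at 5 ng/mL the interval was wide (4.39 times, 0.927 to 20.8) because of the few counts in A549, and it held a ratio of 1. At 1 ng/mL it did not (19.1 times, 2.67 to 136), with 2 counts in each of the A549 libraries. Since each library is a single culture, none of these intervals says how far repeated cultures would differ.

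A test of treatment was possible only across the lines, with both doses pooled as treated and the cell line as a block. In this fit, added after seeing the data, edgeR's quasi-likelihood test on 8159 genes had 3 residual degrees of freedom, and the spread it used includes any difference in response between lines and doses. Of the 7 filament genes in the fit, 3 were higher (KRT7, KRT17 and KRT81) and 2 were lower (KRT8 and KRT18) at a Benjamini-Hochberg adjusted p under 0.05, where 8.18% of the genes were higher and 11% were lower. In edgeR's fit, KRT7 had a log2 FC of 1.68 (adjusted p = 0.00423), KRT17 of 3.46 (adjusted p = 0.00589) and KRT81 of 2.20 (adjusted p = 0.0191). KRT8 had a log2 FC of -1.49 (adjusted p = 0.00832) and KRT18 of -0.85 (adjusted p = 0.0225, edgeR). Of these 5 genes, 4 moved the same way in 4 of 4 treated libraries and KRT17 in 3 of 4, its A549 libraries holding at most 8 counts. The same libraries gave the fit and both doses of a line share a control, so this agreement in direction adds no separate support. VIM had a log2 FC of 0.41 (adjusted p = 0.187, edgeR) and KRT80 of -0.01 (adjusted p = 0.981, edgeR). The call of KRT18 was lost without the A549 control library, without A549 at 1 ng/mL and without BEAS-2B at 1 or at 5 ng/mL. That of KRT17 was lost without the BEAS-2B control library and in DESeq2 (adjusted p = 0.0539).

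**Figure D3:**
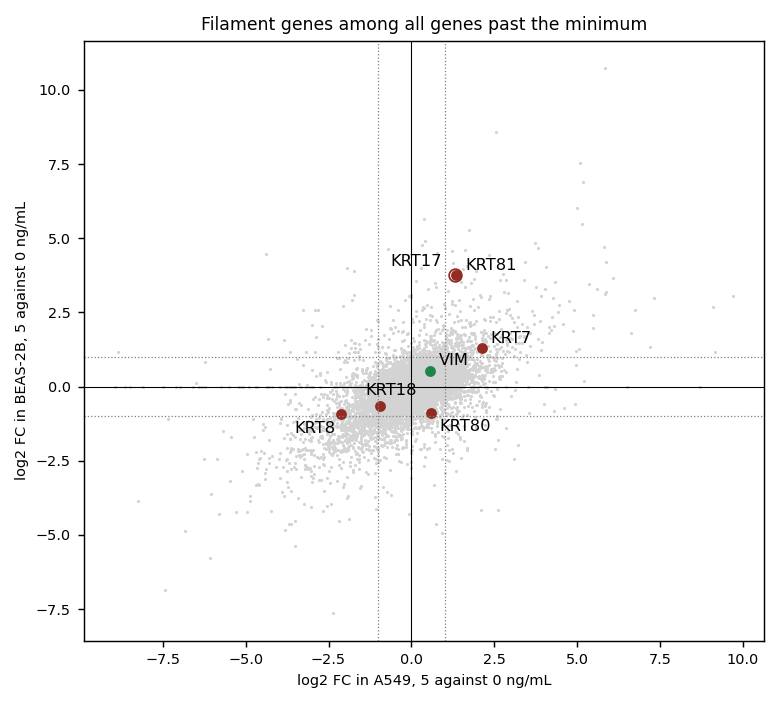
Log2 FC at 5 against 0 ng/mL in A549 (x axis) and BEAS-2B (y axis) for every gene at the minimum (grey) with the keratins (dark red) and VIM (green); dotted lines mark an FC of 2. KRT7 and KRT81 lie past both upper lines, KRT8 lies past the lower line in A549 but not in BEAS-2B, KRT80 lies in the lower right quadrant, and the open ring of KRT17, whose A549 value rests on 8 counts, lies on the point of KRT81.

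The treated libraries of each line were also compared with each other. Between 5 and 1 ng/mL, 0 filament genes were called in either direction in either line, against 1.61% higher and 1.79% lower of 6467 genes in A549 and 0.492% and 0.412% of 6306 genes in BEAS-2B. Among the filament genes at the minimum, the largest step was that of KRT81 in BEAS-2B, 1.55-fold higher at 5 than at 1 ng/mL (1.44 to 1.67). Of the 6306 genes there, 219 had a higher log2 FC. In A549 the step of KRT81 was 1.10-fold (1.08 to 1.11). VIM was 1.25-fold higher (1.20 to 1.31) in A549 and 1.19-fold higher (1.12 to 1.26) in BEAS-2B. KRT7 went up by 1.24-fold (1.21 to 1.26) in A549 but its ratio was 0.874 (0.827 to 0.923) in BEAS-2B. KRT18 likewise differed, with a ratio of 0.956 (0.931 to 0.981) in A549 and 1.26 (1.14 to 1.39) in BEAS-2B.

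For KRT8, KRT18, KRT17 and KRT81, the control libraries of the lines differed by a larger factor than any treated library did from its control. In untreated cells, 1 filament gene was called higher in BEAS-2B than in A549 (KRT17) and 4 were called lower (KRT8, KRT18, KRT7 and KRT81), where 18.9% of 7329 genes were called higher and 18.1% lower. KRT81 was 122-fold lower in BEAS-2B (103 to 145) and KRT8 was 17.1-fold lower, with a ratio of 0.0586 (0.0526 to 0.0651). KRT18 was 10.7-fold lower (10.1 to 11.3) and KRT7 was 3.39-fold lower (3.17 to 3.64). KRT17 was 119-fold higher (32.6 to 987), resting on 2 counts in A549. At 5 ng/mL the same genes were called and KRT80 joined those called lower, against 12.1% and 14.8% of 6837 genes. The gap of KRT81 narrowed to 22.9-fold (21.8 to 24.1) and that of KRT8 to 7.38-fold (6.31 to 8.66), whereas that of KRT7 widened, its ratio of BEAS-2B to A549 going from 0.295 (0.275 to 0.316) to 0.167 (0.160 to 0.174). VIM was 1.23-fold lower in BEAS-2B without and 1.25-fold lower with 5 ng/mL (1.19 to 1.31).

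The make-up of the keratin counts changed within each library. In A549, KRT8 and KRT18 held 15.0% and 35.8% of the counts of the 8 keratins in the control library and 2.13% and 11.6% at 5 ng/mL. KRT7 went from 8.52% to 20.4% and 22.9%, and KRT81 from 40.1% to 63.0% and 62.9%. In BEAS-2B, KRT18 (41.1%) and KRT7 (30.8%) led the control library, and KRT8 and KRT18 together with KRT80 all held a smaller share after treatment. KRT17 went from 7.16% to 34.7% and 37.3% in BEAS-2B and KRT81 from 4.03% to 15.1% and 20.6%. These shares compare counts from 3′ ends and need no scaling between libraries, but a share falls whenever another keratin gains.

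**Figure D4:**
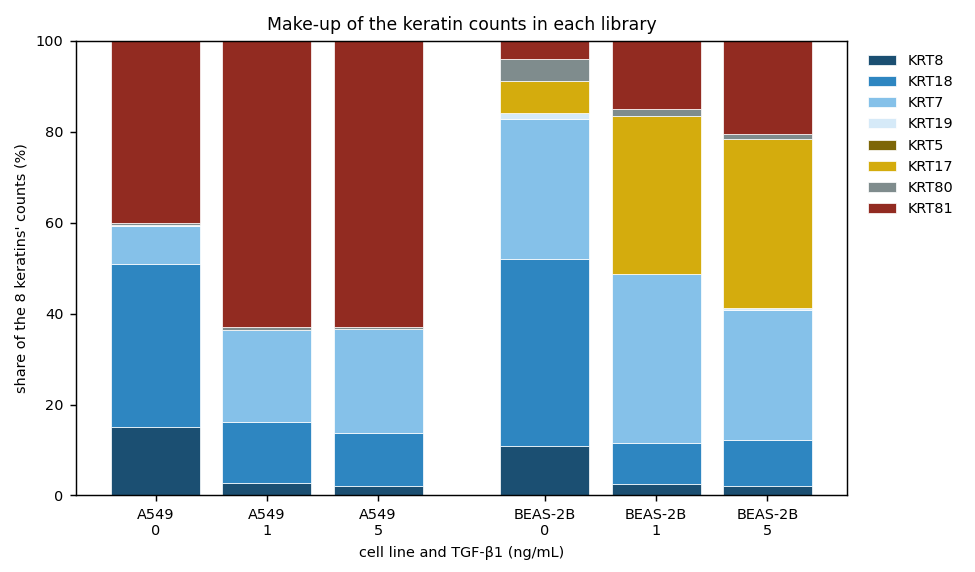
Share of the counts of the 8 keratins (y axis, %) held by each keratin in the 6 libraries (x axis, cell line and TGF-β1 in ng/mL). In A549 the block of KRT81 grows from 40.1% to 62.9% at 5 ng/mL while KRT8 and KRT18 shrink, and in BEAS-2B the block of KRT17 grows from 7.16% to 37.3%.

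Because keratins polymerise as type I with type II, the balance of the classes was also compared. Type II counts per type I count among the 8 keratins were 1.79, 6.51 and 7.64 in A549 at 0, 1 and 5 ng/mL. In BEAS-2B they were 1.02, 1.29 and 1.10. In A549 both sides of the ratio moved. KRT81 and KRT7 rose, while KRT18, which held nearly all type I counts, fell (normalized counts of 16906, 9228 and 8818). KRT81 counts per KRT18 count, which hold both changes, were 1.12, 4.74 and 5.44. In BEAS-2B the type I keratin KRT17 rose alongside KRT81 and KRT7, with 0.174, 3.86 and 3.73 KRT17 counts per KRT18 count. These are ratios of RNA counts, and the values used here include no protein.

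The question that joins these genes, keratins against mesenchymal filaments, was addressed by the number of VIM and NES counts per keratin count within each library. Over all 8 keratins the ratio was 0.0574, 0.0459 and 0.0525 in A549 and 0.580, 0.303 and 0.318 in BEAS-2B. It was lower in every treated library than in the control library of its line. Keratin counts grew from 0.984% to 1.29% and 1.38% of all counts in A549 and from 0.0811% to 0.174% and 0.196% in BEAS-2B. VIM and NES together took 0.0564%, 0.0592% and 0.0723% of all counts in A549 and 0.0471%, 0.0526% and 0.0621% in BEAS-2B.

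The direction of this ratio depended on which keratins were counted. Against KRT8 and KRT18 alone, the ratio of VIM and NES went up, from 0.113 to 0.286 and 0.384 in A549 and from 1.12 to 2.63 and 2.61 in BEAS-2B. Against KRT7 and KRT81 it went down, from 0.118 to 0.0551 and 0.0612 in A549 and from 1.67 to 0.581 and 0.644 in BEAS-2B. Over the 4 simple keratins (KRT7, KRT8, KRT18 and KRT19) it went up in A549 (0.0966, 0.126 and 0.143) and was 0.691, 0.622 and 0.772 in BEAS-2B. KRT8 and KRT18 therefore lost counts relative to VIM and NES in both lines, while the 8 keratins as a whole gained. In A549 that gain rested on KRT81. Without KRT81, a choice made after seeing the data, the ratio went up there (0.0957, 0.124 and 0.141). In BEAS-2B it was still lower after treatment without KRT81 (0.605, 0.357 and 0.400).

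**Figure D5:**
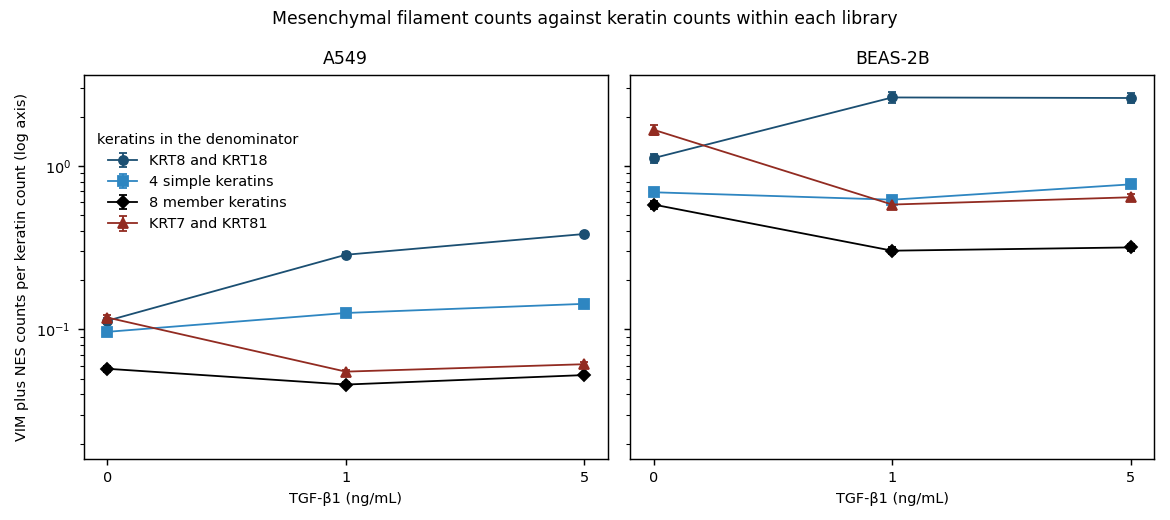
VIM plus NES counts per keratin count (y axis, log scale) against TGF-β1 (x axis, ng/mL) in A549 (left) and BEAS-2B (right), for 4 choices of keratins in the denominator. Points are single libraries with 95% counting intervals; the line over KRT8 and KRT18 goes up with treatment in both panels, and the lines over KRT7 and KRT81 and over all 8 keratins go down.

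Few other keratins were expressed. Of 25 further type I keratin genes, 18 had 0 counts in all 6 libraries and only KRT10, the suprabasal keratin of skin, reached the minimum. KRT10 gave normalized counts of 1045, 427 and 334 in A549. It was called lower there at both doses (log2 FC of -1.29 and -1.64), as were 12.6% and 17.1% of all genes. In BEAS-2B it gave 278, 297 and 348 and was not called. Of 21 further type II keratin genes, 14 had 0 counts in all libraries and none reached the minimum, the highest count being the 63 of KRT86.

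Of 13 other intermediate filament genes, 6 were at the minimum in A549 and 3 in BEAS-2B at either dose. Of these, 0 were called higher, where 5.66% to 16.1% of all genes were, and with so few genes a count of 0 is near those shares. In A549, 1 was called lower at 1 ng/mL and 2 at 5 ng/mL, beside 12.6% and 17.1% of all genes. In BEAS-2B, 2 were called lower at each dose, beside 9.13% and 11.6%. SYNM, which encodes synemin, a filament protein that joins vimentin, gave normalized counts of 276, 119 and 115 in A549 and was called lower at both doses (log2 FC of -1.21 and -1.25). INA, encoding the neuronal filament protein internexin alpha, was called lower in A549 at 5 ng/mL (168, 98.2 and 46.3 normalized counts). NEFL, the neurofilament light chain, was not called in A549 (139, 194 and 166) and had 0 counts in BEAS-2B.

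The nuclear lamins line the inside of the nuclear envelope. In BEAS-2B, LMNA was called lower at both doses (612, 252 and 275 normalized counts), as was LMNB2 (1604, 572 and 632), while LMNB1 was lower without reaching the FC limit (1504, 856 and 824). In A549 none of the 3 was called, with normalized counts of 510, 717 and 656 for LMNA, 319, 267 and 196 for LMNB2 and 260, 358 and 240 for LMNB1. The difference between the lines was not tested for these genes.

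Keratin filaments are anchored at desmosomes and hemidesmosomes, and 10 of 19 genes for these junctions reached the minimum in at least 1 library. In A549 at 5 ng/mL, PLEC and ITGB4 were called higher (log2 FC of 2.96 and 2.34), which encode the linker plectin and the integrin β4 chain of hemidesmosomes, and JUP, the desmosomal linker plakoglobin, was called lower (-1.90). In BEAS-2B at 5 ng/mL, ITGB4 was instead called lower (-2.10), together with its partner ITGA6 (-2.46), JUP (-1.59) and PKP3 (-1.15), and only PKP1 was called higher (1.52). DSP, which encodes desmoplakin, the protein that binds keratins to the desmosome, was not called in any of the 4 comparisons with control. These were 2 higher and 1 lower of 9 junction genes at the minimum in A549, and 1 higher and 4 lower of 10 in BEAS-2B, beside shares over all genes of 16.1% higher and 17.1% lower in A549 and 7.33% and 11.6% in BEAS-2B. At 1 ng/mL, 1 was called higher (PLEC) and 3 lower (JUP, PKP3 and ITGA6) of 9 in A549, beside 10.9% and 12.6% of all genes. In BEAS-2B at that dose, 0 were called higher and 3 lower (PKP3, ITGA6 and ITGB4) of 9, beside 5.66% and 9.13%. PKP3 and ITGA6 were thus called lower at 1 ng/mL in both lines.

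Of 6 genes for EMT transcription factors, only ZEB1 was at the minimum in A549, and ZEB1 and ZEB2 were in BEAS-2B, so the others could not be called. ZEB1 was called higher in A549 at 5 ng/mL (log2 FC of 1.05, with normalized counts of 156, 257 and 325), where 16.1% of all genes were called higher.

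The genes whose log2 FCs over the 4 comparisons with control lay closest to a filament gene, by Euclidean distance among 8159 genes at the minimum, are given as a description. For KRT8 they were TMEM99 (distance 0.15), RLIM (0.19) and LIMD1 (0.22). For KRT18 they were NFE2L2 (0.09), DDX58 (0.17) and RFX5 (0.17), and for KRT7 they were IL32 (0.27), DDB2 (0.33) and TGFB2-AS1 (0.37). The change of VIM was of a common size, with MRPL24 (0.11), ZNF148 (0.12) and PPP1R21 (0.12) at a short distance. KRT80 lay nearest to TRIM59 (0.15), AHNAK2 (0.21) and POLR3GL (0.21). KRT81 had no gene as close, its nearest being LRRC17 (0.65), AMIGO2 (0.69) and KCNG1 (0.70). KRT17, with few counts in A549, lay farther still from its nearest genes, KSR1 (0.89), CHMP4C (0.95) and JAG1 (1.10).

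Reads of KRT8 and KRT18 may be shared with copies of these genes elsewhere in the genome. The annotation holds 50 KRT8 and 68 KRT18 pseudogenes, of which 1 each has an entry in the count tables, and 29.06% and 28.77% of the 50-base words in the last 400 bases of their transcripts also occur in a transcript of another gene. The listed KRT18 pseudogene, KRT18P55, was read 73, 14 and 3 times in A549 and at most 7 times in BEAS-2B, and the listed KRT8 pseudogene at most 1 time. For KRT17 the shared part was 3.42% (with KRT16), for KRT19 it was 1.71%, and for the other 6 genes it was 0%. These shares cover the sense direction only. The genes KRT8 and KRT18 overlap by 1084 bases on opposite strands, as do VIM and VIM-AS1 (1727 bases) and KRT80 and LINC00592 (23005 bases), while KRT7 and KRT86 overlap by 2887 bases on the same strand. If the counting ignored strand, reads that fall within such an overlap of opposite genes cannot be told apart. By the positions given above, the overlap of KRT8 and KRT18 lies at the 5′ start of both genes, while fragments come from near the 3′ end. The overlap of KRT7 with KRT86, which also spans KRT81, lies at the 3′ end of KRT7. That of KRT80 with LINC00592 covers the whole of KRT80, its 3′ end included. How many reads fell within any of these overlaps was not tested.

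Promoter windows from RefSeq (GRCh38.p14), running from 250 bases before to 50 after the start site, were searched for KRT8, KRT5, VIM and NES. CACCTG, an E-box to which SNAI and ZEB factors bind, was found on either strand 1 time in the KRT5 window and not in the other windows, and 20.59% of 35116 windows hold it. GGGCGG, the GC box, was found 4 times in the NES window and 1 time in the VIM window, and 44.95% of windows hold it. TGANTCA, the AP-1 site, and GTCTAGAC, a SMAD palindrome, were found in none of these windows, and 7.709% and 0.2022% of all windows hold them. Such matches describe letters in a window and say nothing of binding.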

How the data were processed

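Each of the 6 conditions (A549 or BEAS-2B, TGF-β1 at 0, 1 or 5 ng/mL, 48 h) has 1 QuantSeq 3′ library. The values the authors deposited are raw read counts per gene symbol, for 25737 entries in 6 libraries. The submitters' processing notes name Bowtie2, bedtools and hg19; versions and the counting strand are not given in the sources used here. Positions and sequences are from GENCODE 29 on GRCh38 and describe the genes, not the counted intervals; promoter windows are from RefSeq (GRCh38.p14).

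Scaling used edgeR 4.0.16 (TMM over all entries) under R 4.3.3. The normalized count is the count over its effective library size, times the mean effective size; fold changes for log2 FC and calls used a pseudocount of 1, and ratios with intervals used none. Calls required an FC of at least 2 and an ND value of at least 7 in 1 of the 2 libraries, the limits the authors state, although how they computed ND is not given in the sources used here. With 1 library per condition no p-value was computed within a line; an added edgeR quasi-likelihood fit tested treated against control with the line as block. Alternatives were DESeq2 1.42.0 size factors, total counts, upper quartile factors, TMM within each line, a filter of at least 10 counts, pseudocounts of 5 and 0.1, thinning, log2(CPM + 1) as the ND value, the minimum in both libraries, FC limits of 1.5 and 3, and other keratins in the denominator. Steps were tested on simulated data. Other steps used Python 3.11.15 with scipy 1.17.1, pandas 2.3.3, numpy 2.4.6 and, for plots, matplotlib 3.10.9.

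The genes and lists were chosen with earlier results of these data known. The text names all 10 filament genes, other filament genes at the minimum, up to 4 called genes of each other list with the largest change at 5 ng/mL, CDH2 as a check of the treatment, the 3 nearest genes by pattern, and paralogs or pseudogenes that may share reads. PKP1, PKP3, DSP and the marker genes named beside these were chosen after their values were seen. A further gene of the treatment check is not reported here.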

Additional observations from a re-analysis of the deposited data

Results flagged for a closer look

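KRT80 came up because its libraries moved in opposite directions in the lines. Its log2 FC was 0.67 at 1 ng/mL and 0.58 at 5 ng/mL in A549, and -0.39 at 1 ng/mL and -0.89 at 5 ng/mL in BEAS-2B. With 1 library per condition, the difference between the lines was not tested. No value reached the FC limit of 2 under TMM scaling.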

How the results depend on the processing

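With total counts as the scaling, 2 filament genes were called lower in A549 at 1 ng/mL and 2 at 5 ng/mL (KRT8 and KRT18), 1 in BEAS-2B at 1 ng/mL (KRT18) and 2 at 5 ng/mL (KRT8 and KRT80). Over all genes, lower calls went from 883, 1220, 610 and 783 (A549, then BEAS-2B, at 1 and 5 ng/mL) to 1131, 1564, 819 and 1013. This scaling moved the median log2 FC of all genes from 0.09, 0.11, 0.01 and 0.03 to -0.07, -0.09, -0.11 and -0.10. With an FC limit of 1.5, 2 were called lower in A549 at each dose, 2 in BEAS-2B at 1 ng/mL and 3 at 5 ng/mL, and 1 (KRT81) was called higher in BEAS-2B between 5 and 1 ng/mL, while lower calls over all genes were 1515, 1865, 1296 and 1493. With a limit of 3, 1 (KRT7) was called higher in A549 at each dose, and KRT7 was no longer called in BEAS-2B at either dose, which left 2 (KRT17 and KRT81). With log2(CPM + 1) as the ND value, 0 were called higher in BEAS-2B than in A549 at 0 ng/mL, and with the minimum in both libraries 0 at 0 ng/mL and 0 at 5 ng/mL, in place of KRT17. The other 174 of 188 call counts stayed within 1.5 times of the reported count, which includes a fall from 3 to 2. Of 316 log2 FC values under the alternatives, 0 were labelled reversed. That label required a change of sign in a gene called under the main setting, so values of uncalled genes could not receive it. The sign of the log2 FC of NES in BEAS-2B at 5 ng/mL, which was not called, ran from -0.12 to 0.07 over the scalings.

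The ratio of VIM and NES to keratin counts was 0.0966, 0.126 and 0.143 in A549 and 0.691, 0.622 and 0.772 in BEAS-2B over the 4 simple keratins. Without KRT81, a choice made after seeing the data, it was 0.0957, 0.124 and 0.141 in A549 and 0.605, 0.357 and 0.400 in BEAS-2B.

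In the edgeR fit over both lines with the line as block, 0 filament genes were lower and 2 (KRT7 and KRT17) higher with dose as a factor at 1 ng/mL, and 1 (KRT8) was lower and 3 were higher at 5 ng/mL. Leaving out each library in turn gave 1 to 2 lower and 2 to 3 higher. No pairing by replicate number was possible because each condition has 1 library and the labels give no such numbers. TMM within each line gave no value for the comparisons between lines. Depth limits KRT5, KRT19 and NES, and KRT17 in A549.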
